A study of Schistosoma mansoni with 6 samples.

Results

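The ferritin genes of adult female Schistosoma mansoni were compared between posterior fragments (tails) and anterior fragments (heads). The 4 genes described here are ferritin 1 (Smp_087760) and 3 genes annotated as ferritin-2 heavy chain (Smp_047650, Smp_047660 and Smp_047680), out of 10831 genes in the deposited table. They were picked by name with their tail and head means already known, because ferritin 1 was higher in tails and the ferritin-2 genes were higher in heads. Their tail-to-head differences are therefore given as a description, without a test. The deposited table annotates 6 genes as ferritin in all, and the 2 others, apoferritin-2 (Smp_063530) and a ferritin heavy polypeptide 1 (Smp_047640), are given beside them.

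Tails were the part of the female behind the ovary, which is mostly vitellaria, and heads the part in front of it. The worms came from infected mice at 7 to 8 weeks after infection, and RNA of many fragments was pooled for each of 3 tail and 3 head libraries, from separate extractions. By the labels, the groups differed only in the position of the fragment. The comparison was made to find transcripts of the vitellaria, the organ of yolk cells (vitellocytes) that feed the embryo and build the eggshell. Fewer cells of a type and less RNA per cell cannot be told apart in such pooled tissue.

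Ferritins are hollow protein cages that take up ferrous iron, oxidise it at a ferroxidase site of the heavy chain and hold it as a mineral, which keeps free iron from driving the formation of radicals. In many egg-laying invertebrates ferritin also serves as a yolk protein that supplies the embryo with iron. Schistosomes take in large amounts of iron and haem with the host blood they digest, and a yolk ferritin of the vitelline cells has been set apart from a somatic ferritin found in both sexes.

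The deposited values are group means of normalized counts, that is, reads per gene divided by a size factor for each library and averaged over the 3 libraries of a group. A group mean alone carries no error. Where a mean is low and only 1 set of whole numbers gives its deposited digits, that set was taken as the reads of the 3 libraries behind it. Such a set is not certain, since means shifted off their values could have solutions too. Shifted means had one for 12.6% of head means under 300 and 26.4% of tail means under 1500. A single set was found for all 3 ferritin-2 genes in tails, for none of the 4 listed genes in heads and for ferritin 1 in neither group. Libraries are called by their size factors, in the absence of replicate numbers, tail libraries 0.72, 0.35 and 0.32 and head libraries 2.55, 2.35 and 2.08. Estimated reads on genes were 5.25 to 11.8 M for each tail library and 25.4 to 31.1 M for each head library, and a sum of 3 reads in a group came to a mean of 2.16 in tails and of 0.43 in heads.

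Ferritin 1 was 12-fold higher in tails. The authors' mean of its normalized counts was 19265 in tails and 1606 in heads, a log2 fold change of 3.58 (tail over head). About 26800 reads over the tail libraries and 11213 over the head libraries lay behind these means, so counting error was small, whereas the spread between libraries is unknown. Its share of all normalized counts was 0.117% in tails and 0.0132% in heads. By log2 fold change it ranked 82nd from the tail side among the 7196 genes with a mean over both groups of at least 100.

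The 3 ferritin-2 genes ran the other way, each to a different extent. Smp_047650 had 997, 1470 and 1070 normalized counts in tail libraries 0.72, 0.35 and 0.32, against an authors' mean of 7626 in heads. All 3 tail libraries lay well under the head mean. The tail mean of 1179 ± 254 (SD, n = 3) gave a log2 fold change of −2.69, and 15.5% of the head level was left in tails. The 3 tail values of Smp_047650 are the least secure of those solved, since at this level a slightly altered mean mostly had a solution too.

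Smp_047660 had 286, 443 and 313 normalized counts in the same tail libraries, against an authors' mean of 4232 in heads. Its tail mean was 347 ± 83.5 (SD, n = 3), its log2 fold change −3.61, and its tail level 8.21% of the head level. Smp_047680 had few reads in tails, with 44.5, 79.4 and 40.7 normalized counts from 32, 28 and 13 reads, against an authors' mean of 1208 in heads. It showed the largest difference of the 4 genes, with a tail mean of 54.9 ± 21.4 (SD, n = 3), a log2 fold change of −4.46 and 4.54% of the head level left in tails. Without tail library 0.35 these log2 fold changes were −2.88 for Smp_047650, −3.82 for Smp_047660 and −4.83 for Smp_047680.

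**Figure D1:**
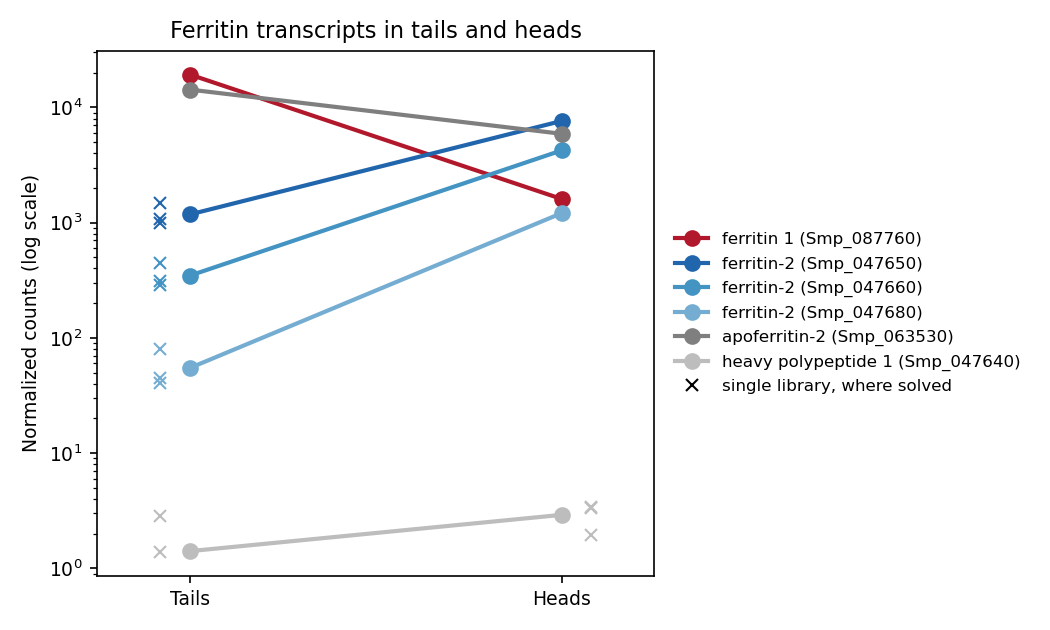
Normalized counts (log scale) of the 6 ferritin genes in tails and heads, with dots at the group means joined by a line for each gene and crosses at single libraries where their reads could be solved. A library at 0 (Smp_047640, 1 tail library) is not drawn. The ferritin 1 line falls to the right, to 1606 in heads, while the 3 ferritin-2 lines climb to 1208, 4232 and 7626 in heads.

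Of the 4 listed genes, 1 was at least 8-fold higher and 2 were at least 8-fold lower in tails. Among the 7196 genes with a mean of at least 100, 1.46% were at least 8-fold higher and 1.03% at least 8-fold lower. The genes were chosen on this contrast, so nothing is read from these counts. Smp_047650 fell short of the 8-fold mark and ranked 117th from the head side, against 57th for Smp_047660 and 38th for Smp_047680. With both groups scaled to equal totals, which moves every log2 fold change by −0.43, it passed the mark at −3.12, and ferritin 1 was still past it at 3.16.

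By the choice of genes with opposite directions, the ratio between the 2 kinds of ferritin differed more than any 1 gene did. There were 12.2 ferritin 1 reads for each ferritin-2 read in tails and 0.123 in heads, so the ratio was 99.1 times as high in tails. Against single ferritin-2 genes, this quotient of ratios was 77.6 for Smp_047650, 146 for Smp_047660 and 264 for Smp_047680. Transcript length cancels in a quotient against a single gene, as does any scaling of the groups. In the 99.1, taken against a sum of 3 genes, length does not cancel, but any set of lengths would keep it between 77.6 and 264. Transcript lengths were not used here, so the 12.2 and the 0.123 compare reads and not molecules. Together the ferritin-2 genes had 1581 normalized counts in tails and 13065 in heads, a log2 fold change of −3.05.

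Total ferritin reads differed much less than their make-up did. The 6 genes summed to 35121 normalized counts in tails and 20579 in heads, a log2 fold change of 0.77, or 0.214% of all counts in tails and 0.169% in heads. Ferritin 1 made up 54.9% of ferritin reads in tails and 7.80% in heads. The ferritin-2 genes made up 4.50% in tails and 63.5% in heads. The remainder was nearly all apoferritin-2, with 40.6% in tails and 28.7% in heads.

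**Figure D2:**
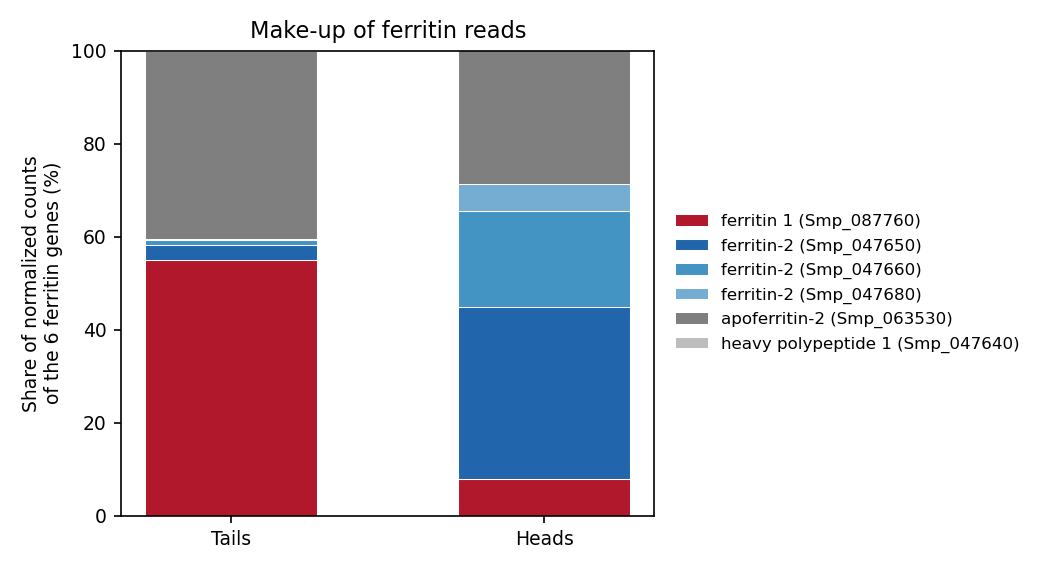
Share of the normalized counts of all 6 ferritin genes (%) that each gene took in tails and in heads, from the group means. Ferritin 1 takes 54.9% of the bar in tails and 7.80% in heads, and the 3 ferritin-2 genes together take 4.50% in tails and 63.5% in heads. The heavy polypeptide 1 is too low to be seen.

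The 2 other ferritin genes differed from both kinds. The authors' mean of apoferritin-2 was 14274 normalized counts in tails and 5905 in heads, a log2 fold change of 1.27. It was thus higher in tails like ferritin 1, but its head level was 41.4% of its tail level, against 8.33% for ferritin 1. The ratio of apoferritin-2 to ferritin 1 reads was 0.741 in tails and 3.68 in heads. Ferritin heavy polypeptide 1 had few counted reads in either region, with 1, 1 and 0 in the tail libraries and 5, 8 and 7 in the head libraries. Its levels of 1.39, 2.84 and 0 normalized counts in tails overlapped those of 1.96, 3.41 and 3.36 in heads, and the difference did not pass the test (log2 fold change −0.88 ± 0.55 SE on log2 of the normalized count plus 1, adjusted p = 0.191 from limma).

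The 3 ferritin-2 genes and the heavy polypeptide 1 lie next to one another on their chromosome in the RefSeq gene order (assembly ASM23792v2), as Smp_047680, Smp_047660, Smp_047650 and Smp_047640. Within this row the share of the head level left in tails rose in gene order. It was 4.54% for Smp_047680, 8.21% for Smp_047660, 15.5% for Smp_047650 and 48.5% for Smp_047640. The last value rests on 2 tail reads. The group means themselves did not follow the order, as Smp_047640 was the lowest of the row in both tails and heads. On one side the row is followed by a poly(ADP ribose) glycohydrolase gene (Smp_147630), with a log2 fold change of −0.24, and a cyclin B3 gene (Smp_047620), with one of 0.35. On the other side lie an even skipped homeobox gene (Smp_147640), at 0 in tails and 6.09 in heads, and a ring finger gene (Smp_047700), with a log2 fold change of −2.07. The neighbours of ferritin 1 were a SEC23 interacting protein gene (Smp_197190), with a log2 fold change of 0.61, and a STARP antigen gene (Smp_132830), with one of −0.83. Reads that fit more than 1 of the clustered ferritin genes, Smp_047640 included, could have been split between them or dropped in counting. The level of each single gene is therefore less certain than their sum.

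The ferritin-2 genes differed among themselves by more than the tail libraries did. Smp_047650 had 3.48, 3.32 and 3.42 times the reads of Smp_047660 in tail libraries 0.72, 0.35 and 0.32, both taken as normalized counts, and 1.80 times in heads by group mean. All 3 tail ratios were above the head ratio. Smp_047660 had 6.44, 5.57 and 7.69 times the reads of Smp_047680 in these libraries and 3.50 times in heads. The spread of these ratios between head libraries is unknown.

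In tails, all 3 ferritin-2 transcripts were highest in library 0.35, as were 817 (18.0%) of the 4529 genes with solved tail reads and a tail mean of at least 50. Of the 27 such genes that were at least 8-fold lower in tails, 6 (22.2%) were highest there, with Smp_047660 and Smp_047680 counted among these 6. That library held 25.3% of the summed size factors of tails. It held 518 of 1577 reads of Smp_047650, or 32.8% (95% exact binomial interval 30.5 to 35.2), and 156 of 462 reads of Smp_047660, or 33.8% (29.5 to 38.3). For Smp_047680 it held 28 of 73 reads, or 38.4% (27.2 to 50.5). These intervals lie above 25.3%, and they cover counting error only. The library was singled out after these values were seen.

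The level in library 0.35 was 1.42, 1.48 and 1.86 times the average of the other tail libraries for Smp_047650, Smp_047660 and Smp_047680. Over the 4529 genes the median of this ratio was 0.932, below 1, and 1.92% of them reached 1.42 times, a mark set by the value of Smp_047650 itself. Of the 27 genes at least 8-fold lower in tails, 4 (14.8%) reached it, with Smp_047660 and Smp_047680 counted among these 4. Oesophageal gland markers were high both in this library and in library 0.32, with 437, 840 and 920 summed normalized counts over the 5 genes in the order of size factors given above. The 13 muscle genes with solved tail reads summed to 4797, 3121 and 3390, highest in library 0.72. The part of carried-over tissue in the ferritin-2 pattern was not tested.

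**Figure D3:**
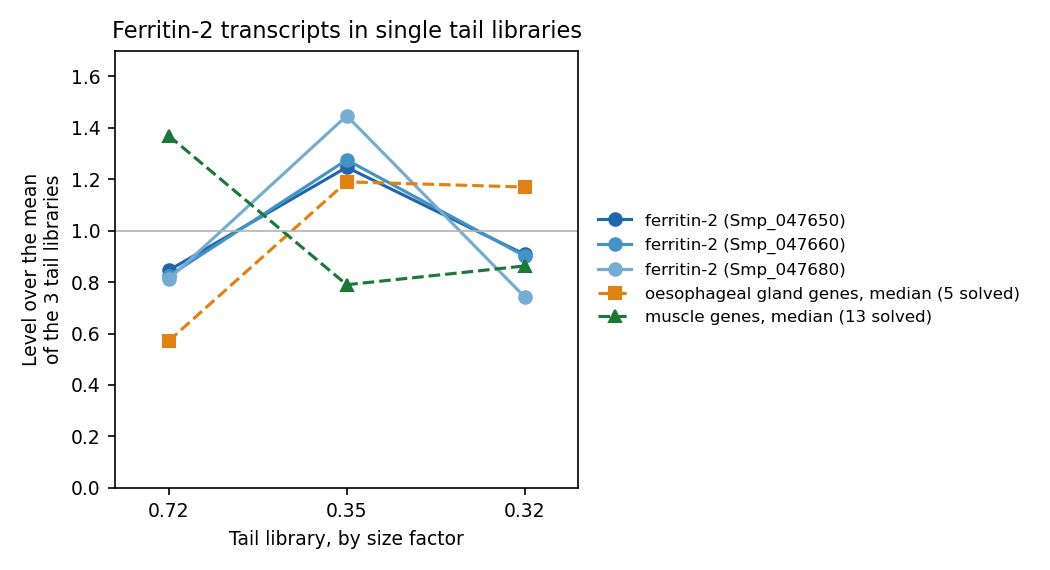
Level in each tail library, named by size factor, over the mean of the 3 tail libraries, for the 3 ferritin-2 genes (solid lines) and as the median of the oesophageal gland and muscle genes with solved reads (dashed lines). The ferritin-2 genes peak in library 0.35, the muscle median is highest, at 1.37, in library 0.72, and the oesophageal median is at 1.19 and 1.17 in libraries 0.35 and 0.32.

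Marker genes of tissues placed the ferritins between the extremes of the body. The 9 vitelline markers, among them the tyrosinases and tes1, had log2 fold changes of 6.09 to 7.81 and head levels of 0.447% to 1.47% of their tail levels. Ferritin 1 retained 8.33% of its tail level in heads, more than any of these 9. All 9 lay far past the 8-fold mark, which ferritin 1 passed too, and the list was not drawn to cover vitelline genes with smaller differences. It does not place ferritin 1 against vitelline genes in general. The 5 oesophageal gland markers, micro-exon genes and a venom allergen-like gene, had log2 fold changes of −7.69 to −6.15 and kept 0.484% to 1.41% of their head level in tails. Each ferritin-2 gene kept more than any of these 5. Both lists were taken from genes that the study named among its tail-enriched or head-enriched transcripts, so their directions here are not independent evidence, although several of the vitelline markers were known from earlier work.

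Vitelline RNA was present in heads and unevenly so. Tyrosinase 1 had 8.63, 197 and 514 normalized counts in head libraries 2.55, 2.35 and 2.08, and tyrosinase 2 had 3.53, 67.3 and 262. Library 2.55 thus held the least of both tyrosinases. The other vitelline marker with solved head reads, fs800, was near 0 throughout, at 0.392, 1.28 and 0, and did not follow this order. Whether ferritin 1 followed these markers across head libraries could not be examined, as its head reads were not solved. The part of vitelline tissue in its head level, whatever the origin of that tissue, was not tested.

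Against tissues that run through the whole body, the ferritin-2 genes stood lower in tails. The 26 genes matched by annotation words for muscle proteins had a median log2 fold change of −1.71 (range −2.34 to 0.67). The words also matched a non-muscle myosin (Smp_046060, at −0.83) and a cellular one (Smp_155840, at 0.66). Of the 26 genes, 17 were at least 2-fold lower and 0 at least 2-fold higher in tails. All 3 ferritin-2 genes lay below the lowest of them. The 18 genes of intestinal proteases and saposins had a median of −0.21, and 1 of them, a cathepsin B (Smp_105370), lay at −2.99, between Smp_047650 and Smp_047660. Over all 9452 genes with reads in both groups the median was 0.00, with 14.4% at least 2-fold higher and 23.7% at least 2-fold lower in tails.

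**Figure D4:**
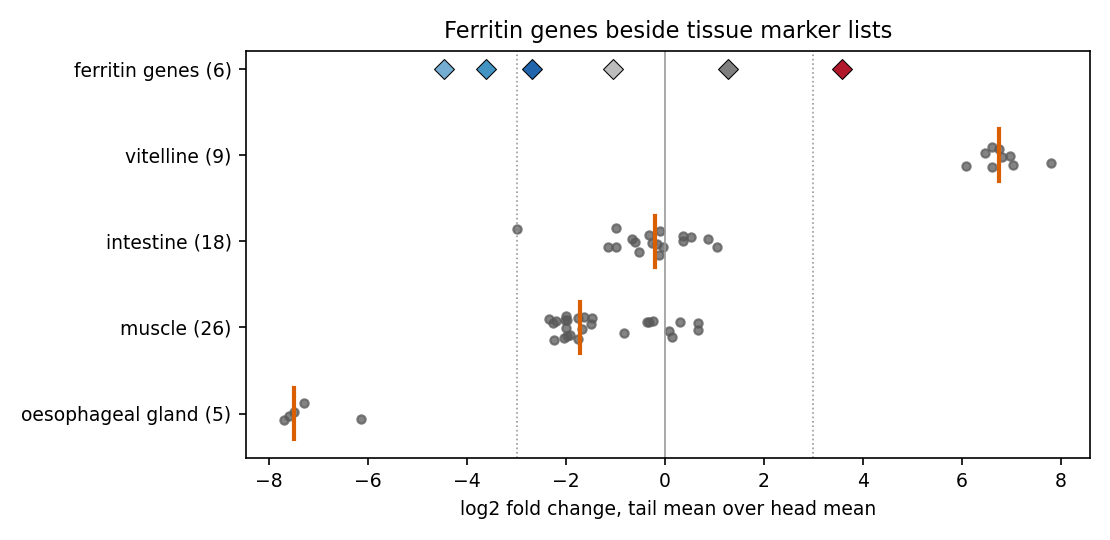
Log2 fold change, tail mean over head mean, of the 6 ferritin genes (diamonds, coloured as in the plot of levels) and of the genes of 4 tissue lists (dots, number in brackets), with the median of each list as an orange bar and dotted lines at 8-fold. Ferritin 1 lies at 3.58, to the left of all vitelline markers, and the ferritin-2 genes lie at −2.69, −3.61 and −4.46, between the muscle genes and the oesophageal gland markers.

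Genes closest to each ferritin in both group means were found by distance on the log2 scale over these 2 values only. Nearest to ferritin 1 were a glutamine oxaloacetic transaminase (Smp_049150), with 16763 normalized counts in tails and 1978 in heads, a glutathione peroxidase (Smp_058690), with 13457 in tails and 1524 in heads, and a staphylococcal nuclease domain protein (Smp_081570), with 12186 in tails and 2117 in heads, at distances of 0.36, 0.52 and 0.77. Glutathione peroxidases remove peroxides. Nearest to Smp_047650 were a receptor-type tyrosine phosphatase (Smp_150220), a 25 kDa integral membrane protein gene (Smp_131840) and a papilin (Smp_180810), at 0.13, 0.27 and 0.33. Nearest to Smp_047660 were the hypothetical protein Smp_052880, an ATP binding cassette transporter (Smp_170820) and a sodium/hydrogen exchanger (Smp_175980), at 0.28, 0.62 and 0.75. Nearest to Smp_047680 were a protocadherin (Smp_159920), another gene of the 25 kDa membrane protein annotation (Smp_154180) and a phospholipase A (Smp_031180), at 0.45, 0.48 and 0.81.

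None of the 47 other iron and haem genes examined differed as much as the 4 listed ferritins. Those 4 were chosen on this contrast, so nothing is read from their lead. Of the 47, drawn by annotation words, 9 were at least 2-fold higher in tails (19.1%, against 14.4% of all genes). Another 3 were at least 2-fold lower (6.38%, against 23.7%), and 0 passed 8-fold in either direction. Their median log2 fold change was 0.50, against 0.00 over all genes, and their range was −1.84 to 2.12. Most of the 47 had a mean of at least 100, whereas all genes include many with few reads. Among the 7196 genes with a mean of at least 100, 13.9% were at least 2-fold higher and 16.7% at least 2-fold lower. The median of these 7196 was 0.14, so part of the contrast with all genes goes with level. With equal group totals 4 were at least 2-fold higher (8.51%, against 8.56% of all genes) and 6 at least 2-fold lower (12.8%, against 32.2%), so the share of higher genes was then that of all genes. The medians were then 0.07 for the list and −0.43 for all genes.

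Genes listed under iron and haem transport and reduction were divided. Several of them are annotated as zinc transporters and were matched by the word ZIP, and whether they carry iron in this worm is not known from these data. Zinc transporter ZIP14 (Smp_013440), whose mammalian counterpart also carries iron, had 2131 normalized counts in tails and 912 in heads, and ferric chelate reductase 1 (Smp_196110), a reductase of ferric iron, had 718 in tails and 1761 in heads, a log2 fold change of −1.29. The divalent metal transporter DMT1B (Smp_099850), of a family that carries ferrous iron across membranes, had 2590 normalized counts in tails and 1950 in heads, a log2 fold change of 0.41 that became slightly negative with equal group totals. The 10 genes of this group had a median of −0.27.

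Over all genes with reads in both groups, 4728 of 9452 were higher in tails, and 4023 of 7196 at a mean of at least 100. With equal group totals this count over all genes is not given, but their median was −0.43. Of the 9 genes listed under haem synthesis and breakdown, 7 were higher in tails, and 5 with equal group totals. By annotation this list held no enzyme of haem breakdown. Uroporphyrinogen decarboxylase (Smp_143740), an enzyme midway in haem synthesis, had 1185 normalized counts in tails and 273 in heads, a log2 fold change of 2.12, whereas 5-aminolevulinate synthase (Smp_045260), which starts the pathway, had one of −0.41. Of the 12 genes of iron-sulphur cluster assembly, 11 were higher in tails, and 9 with equal group totals. They included cysteine desulfurase (Smp_075470), which supplies the sulphur, at 1.53, and glutaredoxin 3 (Smp_006550), which handles clusters in the cytosol, at 1.06, while a cluster scaffold protein (Smp_177790) was at −0.12. All 8 respiratory iron-sulphur subunits were higher in tails, at 0.18 for Smp_171900 to 0.82 for Smp_092570 and at 0.66 for that of succinate dehydrogenase (Smp_089640), but 2 of the 8 were lower with equal group totals. Aconitate hydratase (Smp_063090), an iron-sulphur enzyme, was at 0.08, and at −0.35 with equal group totals.

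Among globins and haem proteins, globin X (Smp_052990) had 72.0 normalized counts in tails and 257 in heads, a log2 fold change of −1.84. Cytochrome b5 type B (Smp_066010), an electron carrier of mitochondria, had one of 1.34.

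**Figure D5:**
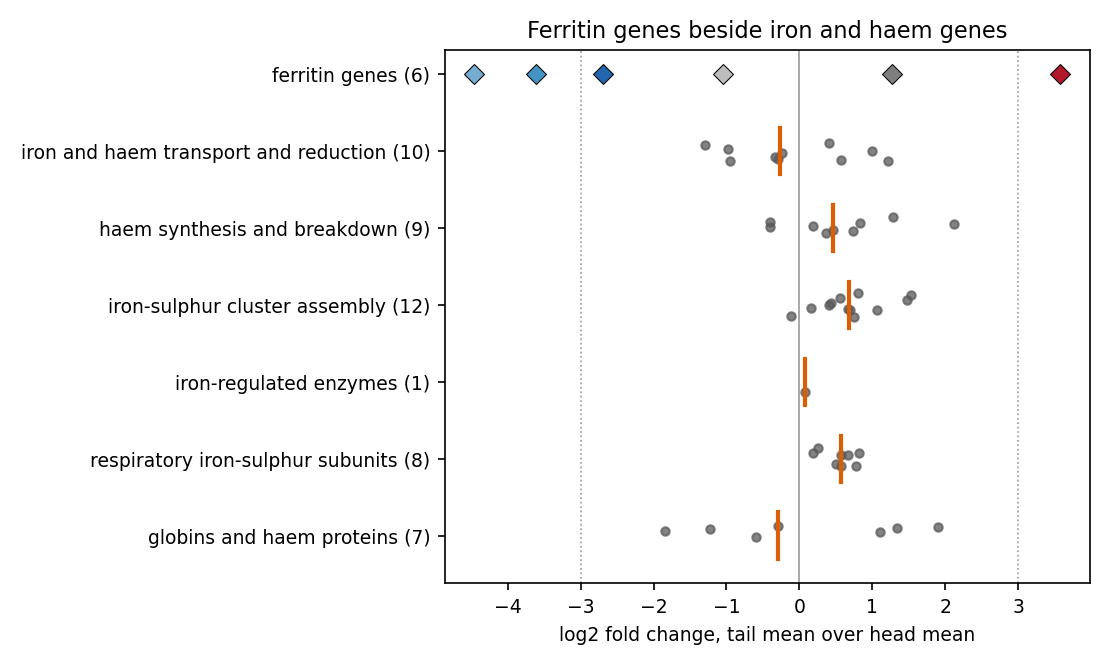
Log2 fold change, tail mean over head mean, of the 6 ferritin genes (diamonds, coloured as in the plot of levels) and of 47 other iron and haem genes by group (dots, number in brackets), with the median of each group as an orange bar and dotted lines at 8-fold. The other iron and haem genes lie between −1.84 and 2.12, inside the span from the ferritin-2 genes to ferritin 1.

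Low enough for reads to be solved in all 6 libraries were 11 of the 47 iron and haem genes, and for these tails were tested against heads. At an adjusted p under 0.05 from limma, 6 of the 11 were higher and 2 were lower in tails, where 20.6% of the 3502 genes tested were higher and 42.5% lower. Reads were solved only for head means under 300 and tail means under 1500, in the 11 and the 3502 genes alike. A gene with a mean over 300 could thus be tested only where that mean was in tails. The 6 and the 2 are therefore not read as a balance of directions among iron and haem genes. The 6 include a gene annotated as a zinc transporter and matched by the word ZIP. A heme binding protein 2 (Smp_011030) rose, with 175, 199 and 207 normalized counts in tail libraries, against 32.5, 65.6 and 57.6 in head libraries (log2 fold change 1.93 ± 0.27 SE, adjusted p = 0.000841 from limma). The groups did not overlap. Porphobilinogen deaminase (Smp_095130), an enzyme of haem synthesis, rose too, with 292, 479 and 507 in tail libraries, against 183, 170 and 175 in head libraries (log2 fold change 1.23 ± 0.21 SE, adjusted p = 0.002 from limma). A cytochrome b561 annotated as ferric reductase (Smp_127270) fell, with 54.2, 62.4 and 81.4 in tail libraries, against 126, 130 and 135 in head libraries (log2 fold change −0.99 ± 0.20 SE, adjusted p = 0.00383 from limma). The other gene that fell was a cytochrome b5 reductase (Smp_127160), with an adjusted p of 0.0109 from limma that ranged from 0.00254 to 0.0513 over the other settings and was highest without head library 2.08. Smp_095130, Smp_127270 and Smp_127160 were picked from the 11 after their values were seen.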

How the data were processed

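RNA of 3 tail and 3 head libraries was sequenced. The authors mapped reads with STAR 2.5.0b to the WormBase ParaSite v4 genome, and the sources used here do not name the read counter. The deposited signal values are reads per gene divided by DESeq 1.22 size factors and averaged by the authors over each group. The deposited ratio, log2 ratio and p-values hold the authors' own comparison and were not used.

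Log2 fold changes were computed from the group means. Size factors were found from repeated values among the lowest means, and whole reads were accepted where 1 set gave the deposited mean, for 4014 of 4027 head means under 300 and 6646 of 7426 tail means under 1500. On simulated data, a single solution was found for 3839 of 3867 head and 6599 of 7111 tail means, and all were right. They were bound to be right, since the simulated means were built with the same size factors used to solve them. The simulation shows how often a single solution exists, and does not test the size factors found here. In the range of Smp_047650, tail means of 1000 to 1500, a single solution was found for 243 of 755, again right by construction. A mean shifted off its true value often had a solution there too (183 of 200 shifts).

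Genes with solved reads in both groups and at least 10 reads were tested with limma 3.58.1 (R 4.3.3) on log2 of the normalized count plus 1, with a trended prior variance and Benjamini-Hochberg adjustment. Replicates were separate extractions. Named genes are the 4 listed ferritins, other ferritins, the 3 nearest genes to each, chromosomal neighbours, and in each iron group the genes of highest mean and of largest and smallest fold change at a mean of at least 100. Plakoglobin and haemoglobinases, matched by the word globin, were left out. Alternatives were scaling, pseudocount, level filter and left-out libraries. The members and lists were chosen with earlier results of these data known. RefSeq (ASM23792v2) gave gene order only.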

Additional observations from a re-analysis of the deposited data

How the results depend on the processing

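No direction of the 4 listed genes changed under the scaling, pseudocount and left-out library settings that were run. With equal group totals the log2 fold changes were 3.16 for ferritin 1, −3.12 for Smp_047650, −4.04 for Smp_047660 and −4.89 for Smp_047680. Leaving out each tail library gave −2.88 to −2.59 for Smp_047650, −3.82 to −3.49 for Smp_047660 and −4.83 to −4.28 for Smp_047680. No library could be left out for ferritin 1 or in heads, where reads were not solved. The genes at least 8-fold higher in tails, 105 at a mean of at least 100, numbered 185 without a level filter. Those at least 8-fold lower, 74, numbered 171 at a mean of at least 10, 202 without a filter and 144 with equal group totals. Of the iron and haem genes, 4 were at least 2-fold higher and 6 at least 2-fold lower with equal group totals (809 and 3048 of all 9452 genes), against 9 and 3 (1359 and 2239). By limma, 6 were higher in the 8 settings run, and 1 to 4 were lower with a library left out, 4 without tail library 0.32 and 1 without head library 2.08. The limma test was not run with equal group totals. No paired analysis was possible because the deposited columns carry no replicate numbers. Ratios per coding length were not run, as lengths were not used here. The abundant ferritin means carry no library error, and tail levels near 2.16 rest on 3 reads.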
